A study of Bos taurus with 8 samples.

Results

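A set of 6 genes of fatty acid and phospholipid handling, *PLIN2*, *FABP3*, *FABP7*, *ACSL1*, *MFSD2* (now *MFSD2A*) and *AGXT2L1* (now *ETNPPL*), was followed across bovine morulae, blastocysts and the separated inner cell mass (ICM) and trophectoderm (TE). They were taken as all probes that the array annotation assigns to these 6 symbols, which gave 16 of 43653 gene probes and 6 of 12552 genes with a symbol. The 6 genes were chosen by their blastocyst minus morula difference on these arrays, being lower in blastocysts, so the differences between day 9 and day 5 are given as a description without a test. Only the comparison of ICM with TE was tested for them.

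The samples were 2 ICM, 2 TE and 2 whole blastocyst samples of day 9 after fertilization, and 2 morula samples of day 5. All embryos were made in vitro from oocytes of slaughterhouse ovaries and sperm of a bull, matured and cultured without any inhibitor or other added treatment, and each sample pooled many embryos. ICM and TE were cut apart by hand from the same blastocysts, so that an ICM sample still held some TE cells. Each sample was hybridized on a two-colour Agilent array against one common pool of blastocyst RNA, replicate 1 labelled with Cy3 and replicate 2 with Cy5. Levels are given as the log2 ratio of sample to pool after loess normalization, on which 1 unit is a 2-fold difference and 0 is the level of the pool. The whole blastocyst samples came from the same embryos as parts of that pool, so they lay near 0 by construction.

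Sample medians over all gene probes were 230 to 536 scanner units over a local background of 47.5 to 60.1, and 90.3% to 94.8% of the probes of an array were above the background. Morula replicates correlated at r = 0.915 over all probes, TE replicates at 0.52 and ICM replicates at 0.373, whereas blastocyst replicates ran at -0.546. As a check of the dissection, *NANOG*, a transcription factor of the epiblast, had log2 ratios of 0.99 and 1.59 in ICM and -2.37 and -2.50 in TE, and 3 of 5 epiblast markers were higher in ICM than in TE. Of 5 trophectoderm markers, *GATA3* and *PAG2* were lower in ICM, and the other 3 did not pass. Of 6 primitive endoderm markers 0 were called by their brightest probes, which ran from -1.07 for *DAB2* to 1.26 for *FST*. A dimmer probe of *DAB2* was called lower in ICM at -1.35. These were bulk samples, so fewer cells of a type and less RNA per cell cannot be told apart.

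Early embryos of cattle carry large amounts of triacylglycerol in cytoplasmic lipid droplets, which makes bovine oocytes and cleavage stages dark. Droplets are coated by perilipins. Fatty acids reach them and the mitochondria on small cytosolic carriers, the fatty acid binding proteins, after or before being joined to coenzyme A by acyl-CoA synthetases. Phosphatidylcholine and phosphatidylethanolamine, the main membrane phospholipids, are built on choline and ethanolamine heads, and some tissues take up lysophosphatidylcholine through a dedicated transporter. PLIN2 is the widely expressed droplet coat, FABP3 and FABP7 are the carriers first described in heart and brain, ACSL1 activates long-chain fatty acids, MFSD2A imports lysophosphatidylcholine, and ETNPPL breaks down phosphoethanolamine.

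All 6 genes were at their highest in both morula samples, which lay above each of the 6 day 9 samples. Such a separation was found for 23.0% of all genes, and it is what the genes were chosen for. They formed 2 groups by size. *MFSD2* and *AGXT2L1* were over 20 times as high in morulae as in blastocysts, and the other 4 genes between 2 and 3 times. Single samples and probes moved these sizes: without morula replicate 2 the log2 difference was -3.49 for *MFSD2* and -4.66 for *AGXT2L1*, and without replicate 1 it was -5.36 and -5.97. It was -2.31 for *MFSD2* with both of its probes averaged, -4.64 for *AGXT2L1* with normexp background correction, and -0.80 for *PLIN2* without morula replicate 1.

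Among the storage genes, *PLIN2* had log2 ratios of 0.44 and 0.96 in ICM, -0.60 and -0.67 in TE, -0.17 and 0.42 in blastocysts, and 1.49 and 1.10 in morulae. The order of the means was thus morula, ICM, blastocyst and TE, with no overlap between neighbours, although the lower ICM sample and the higher blastocyst sample differed by only 0.02. Its level in blastocysts was 44.5% of that in morulae, a difference of -1.17 ± 0.25 on the log2 scale (SE, n = 2 each). ICM held 66.1% and TE 26.3% of the morula level.

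*FABP3* had log2 ratios of 0.73 and 0.87 in ICM, -1.16 and -1.48 in TE, -0.13 and 0.07 in blastocysts, and 1.34 and 1.49 in morulae. The 4 groups followed in the same order as for *PLIN2*, all well apart, and TE was the lowest of all. Blastocysts differed from morulae by -1.44 ± 0.15, and TE held 15.1% of the morula level against 65.4% in ICM. Scanner intensities of this bright probe were 4297 and 9582 in ICM, 1993 and 2890 in TE, 3385 and 6578 in blastocysts, and 19082 and 24619 in morulae.

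*FABP7* was a dimmer probe, with 325 and 520 scanner units in ICM, 197 and 294 in TE, 262 and 274 in blastocysts, and 1116 and 1140 in morulae. Its log2 ratios were 1.03 and 0.97 in ICM, -0.48 and -0.24 in TE, 0.14 and -0.34 in blastocysts, and 1.53 and 1.22 in morulae. Here ICM came close to morulae, at 77.4% of their level, while the ranges of TE and blastocysts overlapped. Blastocysts differed from morulae by -1.47 ± 0.18 (SE, n = 2 each).

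*ACSL1* showed another profile. Its log2 ratios were 0.17 and 0.41 in ICM, 0.21 and 0.39 in TE, 0.16 and -0.15 in blastocysts, and 1.45 and 1.66 in morulae. The ranges of ICM and TE overlapped, and both stood at a similar share of the morula level, 41.6% in ICM and 42.0% in TE. Blastocysts differed from morulae by -1.55 ± 0.15. Their mean lay below both of their dissected parts, by 0.28 for ICM and 0.30 for TE, but the higher blastocyst sample (0.16) nearly met the lower ICM sample (0.17). With replicates left out these differences fell to as little as 0.03 for ICM and 0.04 for TE.

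By their brightest probes, the phospholipid genes were far higher in morulae than in day 9 samples. *MFSD2* had log2 ratios of 0.79 and 0.50 in ICM, -0.12 and -0.17 in TE, 0.34 and -0.11 in blastocysts, and 3.74 and 5.34 in morulae. The scanner read 469 and 792 units in ICM, 403 and 572 in TE, 483 and 654 in blastocysts, and 22381 and 36545 in morulae, so that all day 9 samples were above the background but far below morulae. Blastocysts differed from morulae by -4.43 ± 0.47, a 21.5-fold lower level (SE, n = 2 each).

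*AGXT2L1* had log2 ratios of 0.03 and 0.12 in ICM, -0.66 and -1.03 in TE, -0.65 and -0.05 in blastocysts, and 4.25 and 5.67 in morulae. Intensities were 136 and 199 in ICM, 116 and 105 in TE, 107 and 222 in blastocysts, and 18030 and 18857 in morulae. The difference of -5.31 ± 0.39 between blastocysts and morulae was the lowest of all 12552 genes, followed by that of *MFSD2*, whereas *ACSL1*, *FABP7*, *FABP3* and *PLIN2* ranked 305, 351, 384 and 667 from the lowest. ICM held 3.40% and TE 1.79% of the morula level of *AGXT2L1*.

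**Figure D1:**
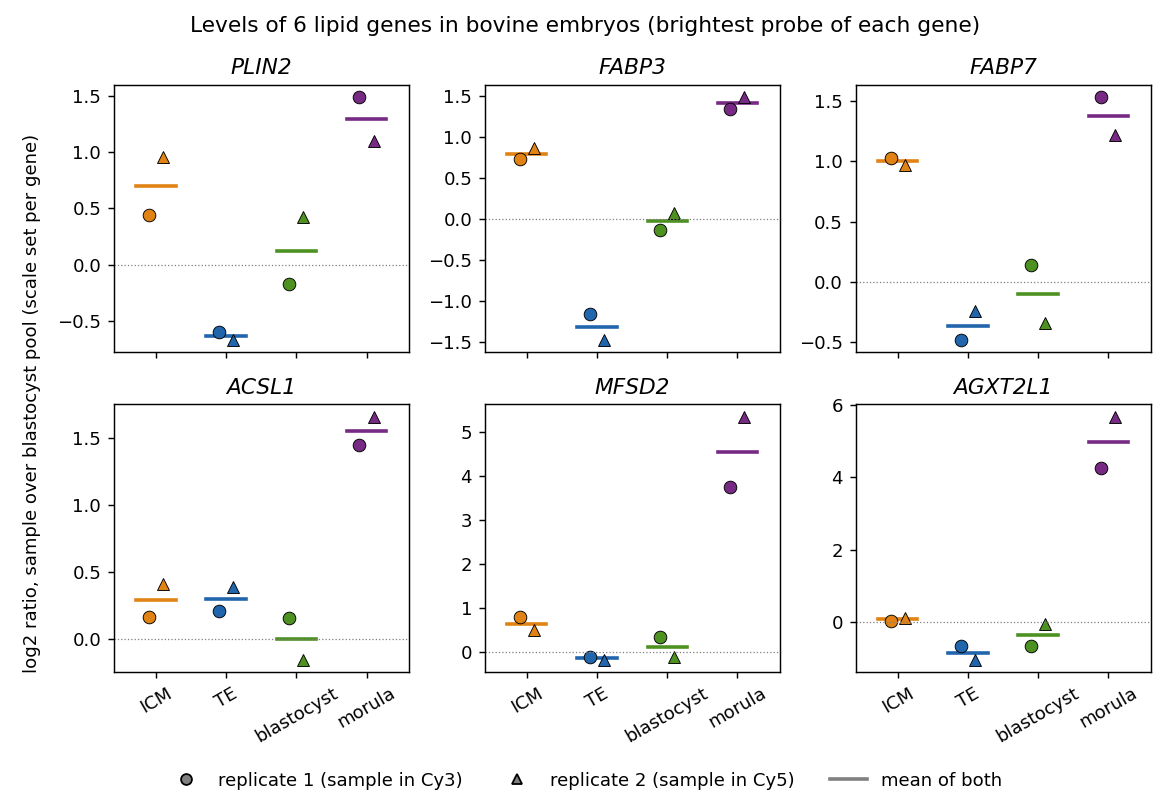
Log2 ratio of sample to blastocyst pool (y axis, its own scale in each panel) for the brightest probe of each of the 6 genes in ICM, TE, blastocyst and morula samples (x axis). Circles are replicate 1, triangles replicate 2 and bars their mean; both morula samples lie above all day 9 samples in every panel, and ICM and TE overlap for *ACSL1* only.

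The 2 morula samples differed more for the phospholipid genes than for the others, with an SD of 1.13 for *MFSD2* and 1.00 for *AGXT2L1* against 0.10 to 0.28 for the 4 other genes. In both cases replicate 1 gave the lower ratio. On that array the pool channel read 1156 units for *MFSD2* and 640 for *AGXT2L1*, against 301 to 559 and 132 to 210 on the other 7 arrays, although the pool was the same RNA throughout. The part of this in the lower ratio was not tested.

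**Figure D2:**
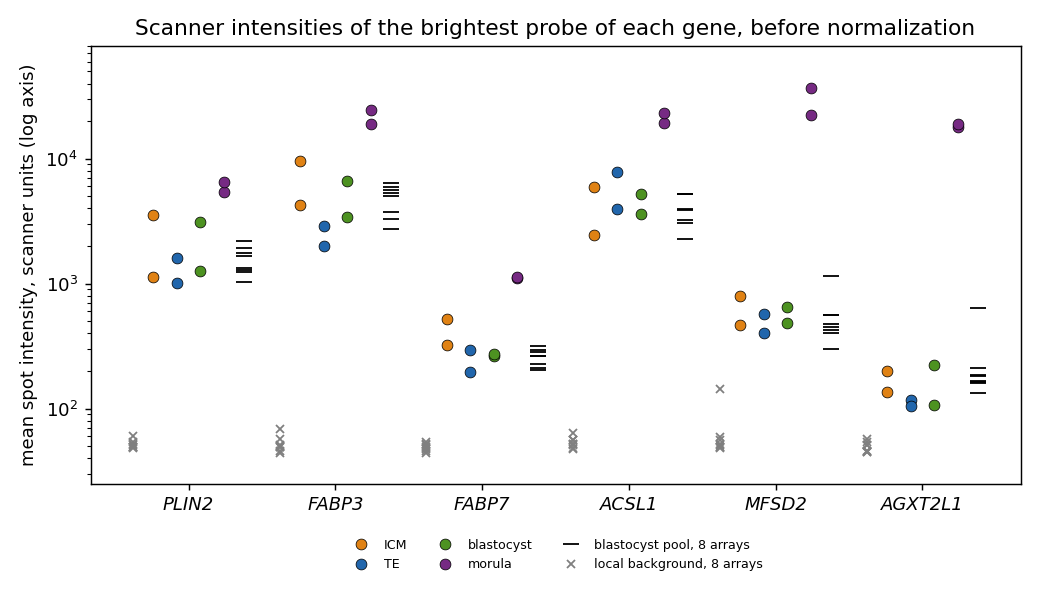
Mean spot intensity in scanner units before normalization (y axis, log scale) for the brightest probe of the 6 genes (x axis), with ICM, TE, blastocyst and morula samples as coloured points, the common pool on all 8 arrays as dashes and the local background as crosses. *MFSD2* and *AGXT2L1* read 18030 units or more in morulae and stay under 800 units in all day 9 samples, and 1 pool value of each stands above the other 7.

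Markers of several cell types differed along with these levels. The mean log2 ratio over 6 oocyte markers was between -0.14 and 0.07 in day 9 samples and was 1.32 and 1.34 in morulae, and *GDF9*, *ZP4* and *BMP15* were lower in blastocysts than in morulae while the brightest probes of the other 3 did not pass. Dimmer probes of *ZP2*, *ZAR1* and *BMP15* were called lower as well, at -2.82, -1.59 and -1.54. Other dimmer probes were not called, at -0.27 for *GDF9*, -0.68 for *BMP15*, -0.22 for *ZP2*, and -0.65 and -0.74 for *ZAR1*. For 5 epiblast markers the mean was 0.55 and 0.94 in ICM, and -0.91 and -0.89 in TE. It was 0.05 and -0.08 in blastocysts, and 0.93 and 1.00 in morulae. *KLF4*, *SOX2* and *PRDM14* were lower in blastocysts than in morulae, and the other 2 did not pass. By their brightest probes these 2 ran the other way. *NANOG* was higher in blastocysts by 0.88, under the 2-fold minimum (adjusted p = 0.0311 by limma), and lay below the pool in both morula samples. *DPPA4* differed by 0.18. Their dimmer probes were not called, at 0.15 and -0.02 for *NANOG* and -0.25 for *DPPA4*. The mean of 6 primitive endoderm markers was -0.24 to 0.22 in day 9 samples, and -0.74 and -0.66 in morulae. Over 5 trophectoderm markers the mean was -0.22 and -0.16 in ICM, 0.20 and 0.53 in TE, 0.01 and -0.11 in blastocysts, and -2.44 and -2.61 in morulae. Over 7 markers of cumulus and granulosa cells, which surround the oocyte, it was -0.13 to 0.26 in day 9 samples, and -1.15 and -0.72 in morulae, or -0.68 and -0.21 in morulae without *HSD3B*. That steroid dehydrogenase was the 1 of the 7 whose brightest probe was called, higher in blastocysts, and the other 6 did not pass. A dimmer probe of *FSHR* was called higher in blastocysts as well, at 2.52, while dimmer probes of *HSD3B* at 0.58 and 0.38 were not called. Each oocyte marker was above the background in at least 1 sample of every group, except *BMP15* in ICM. The part of maternal RNA or of other cells in the levels of the 6 genes was not tested.

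Whether the 6 genes were divided between the 2 lineages of the blastocyst was tested by comparing ICM with TE. *FABP3* and *FABP7* were higher in ICM, *PLIN2* was higher in both ICM samples than in both TE samples but just missed the threshold, and *ACSL1* did not differ detectably. Calls needed an adjusted p under 0.05 (limma, Benjamini-Hochberg over all 43653 gene probes) and at least a 2-fold difference. Of the 6 genes 2 were called higher in ICM and 0 lower, against a background of 1.33% of all genes called higher and 0.231% called lower, that is 167 and 29 genes, or 146 and 78 with median centring in place of loess. Both ICM samples lay above both TE samples for 5 of the 6 genes, which was the case for 22.1% of all genes.

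*FABP3* was 4.33-fold higher in ICM than in TE, a log2 difference of 2.12 (95% interval 1.76 to 2.47, adjusted p = 0.00441 by limma). This was the largest difference among the 6 genes and ranked 37 from the highest of 12552 genes. Without ICM replicate 2 the difference was 2.05 with an adjusted p of 0.0657, and the call was lost.

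*FABP7* was 2.57-fold higher in ICM, with a log2 difference of 1.36 (95% interval 0.93 to 1.79, adjusted p = 0.0204 by limma). The call rested on both samples of both tissues, since leaving out any 1 of these 4 samples gave adjusted p-values of 0.0581 to 0.179 (limma). It was also lost with a normexp background correction, under which the difference was 0.73 (adjusted p = 0.245), and averaging both of its probes left it at 0.91, under the 2-fold minimum.

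*PLIN2* had a log2 difference of 1.33 between ICM and TE (95% interval 0.72 to 1.94), a ratio of 2.52, with an adjusted p of 0.051 (limma). It ranked 111 from the highest, next to *FABP7* at 108. The adjusted p fell on the other side of the threshold under several settings. Examples were 0.035 over the upper 60% of probes by intensity and 0.0442 with only the 4 ICM and TE arrays (limma). Among the settings that kept all ICM and TE samples it was 0.184 at most. *PLIN2* was not called without any 1 ICM or TE sample, with differences of 1.09 to 1.57 over all replicates left out.

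The 2 phospholipid genes were also higher in both ICM samples than in both TE samples, but did not pass. *MFSD2* differed by 0.79 (95% interval -0.36 to 1.94, adjusted p = 0.532) and *AGXT2L1* by 0.92 (95% interval -0.02 to 1.87, adjusted p = 0.316 by limma). The wide spread of the morula replicates entered this error, because all 8 arrays shared one estimate for each probe. Without either morula replicate the adjusted p was 0.0545 for *MFSD2* and 0.126 for *AGXT2L1*, still short of the threshold. *ACSL1* differed by -0.01 (95% interval -0.39 to 0.36, adjusted p = 0.99), an interval of 0.765 to 1.28 times the TE level.

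Set beside each other over the 8 samples, the 6 profiles fell into 2 sets by their correlation. *PLIN2* correlated with *FABP3* at r = 0.96 and with *FABP7* at 0.89, and *FABP3* with *FABP7* at 0.91, whereas *MFSD2* correlated with *AGXT2L1* at 0.99 and with *ACSL1* at 0.95. Between the 2 sets r was 0.62 to 0.78. These 8 points share the pool and were chosen for their high morula level, so the values only describe the shapes in the plot of levels by sample.

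The annotation gave several probes for 4 of the genes. The 4 probes of *FABP3* all read higher in ICM than in TE, by 2.12, 2.41, 2.04 and 1.03, with adjusted p-values of 0.00441 to 0.00981 (limma). The second probe of *FABP7* was at 0.46 with an adjusted p of 0.059. Of the 6 *ACSL1* probes, the 4 brightest were between -1.65 and -1.38 for blastocyst minus morula and between -0.16 and -0.01 for ICM minus TE.

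The dimmest probes showed little or nothing of the morula peak. The fifth and sixth *ACSL1* probes, with 92 to 156 scanner units, gave 0.00 and -0.31 for blastocyst minus morula, the sixth being above the background in neither morula sample. The second *MFSD2* probe, with 102 to 164 units, gave -0.19 where the first gave -4.43. These 3 probes were the only ones of the 16 that were not above the background in the sample channel of all 8 arrays. Both morula samples still lay just above all day 9 samples for the sixth *ACSL1* probe (0.33 and 0.37 against at most 0.29). The same held for the second *MFSD2* probe (0.17 and 0.16 against at most 0.08). Which transcript ends the probes match was not analysed here.

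**Figure D3:**
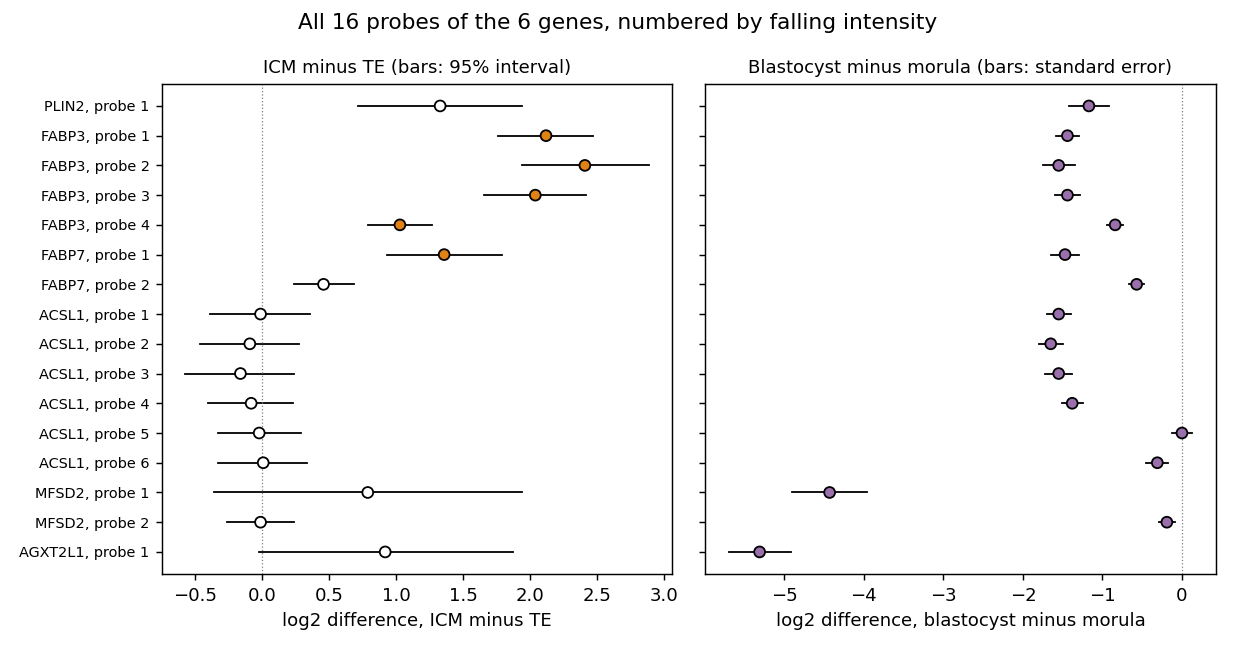
Log2 difference (x axes) for all 16 probes of the 6 genes (y axis, numbered by falling intensity), ICM minus TE on the left with 95% intervals and filled points for called probes, and blastocyst minus morula on the right with standard errors and no test. All 4 *FABP3* probes are called higher in ICM, and the dimmest *ACSL1* and *MFSD2* probes stay near 0 on both sides.

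To see whether other genes of lipid handling behaved like these 6, 9 lists with 133 measured genes were set beside them. Most genes did not pass, and most of the 34 that were called ran the other way: 29 genes were higher and 5 lower in blastocysts than in morulae, and 99 did not pass, against 10.2% higher and 7.15% lower among all genes (1281 and 898 genes, or 1072 and 1261 with median centring, under which 25 and 6 of the 133 were called). The median difference over the 133 genes was 0.16, against 0.04 over all genes. The lists leave out the 6 genes, which were chosen for being lower in blastocysts, so the counts of lower genes are reduced by that choice. In ICM against TE 2 of the 133 were higher and 0 lower, and 0 of the 133 were called higher when any 1 of the ICM or TE samples was left out. Calls rested on the brightest probe of a gene, and other probes could miss the threshold, as for *AGPAT1* (0.25), *MFSD10* (-0.09) and *MBOAT2* (-0.13 and 0.97) between blastocysts and morulae. Of all 12552 genes, 2737 had an unadjusted p under 0.05 for ICM minus TE and 6107 for blastocyst minus morula (limma).

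Among 15 other genes of lipid droplet coats and droplet formation, 4 were higher and 1 lower in blastocysts. *HSD17B11*, a droplet-bound dehydrogenase, was 5.61-fold higher, *M6PRBP1* (now *PLIN3*), another perilipin, 3.83-fold and *AUP1*, a droplet and ER protein, 3.52-fold (adjusted p = 0.000113, 8.53e-05 and 0.000145 by limma). *PLIN3* thus ran opposite to *PLIN2*, with log2 ratios of 0.21 and -0.29 in blastocysts, and -1.77 and -2.17 in morulae, where 1 of 2 samples was above the background. *RAB18*, a small GTPase on droplets, was the 1 gene that was lower, by 2.40-fold, and *FITM1*, which promotes droplet formation, differed by -0.32 with an adjusted p of 0.151.

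Of 10 other fatty acid and retinoid binding proteins 1 was higher and 1 lower. *FABP5*, the epidermal form, was 4.14-fold higher in blastocysts, with log2 ratios of -0.19 and 0.17 in blastocysts, and -2.17 and -1.94 in morulae. It was thus the reverse of *FABP3* and *FABP7*, and between ICM and TE it stood at -0.71, which did not pass (adjusted p = 0.0731 by limma). *FABP2*, the intestinal form, was 2.30-fold lower in blastocysts at intensities near the background, and *CRABP1*, a retinoic acid carrier, had a brightest probe at -0.08 whose morula ratios were -0.90 and 0.99, while its dimmer probe was called lower in blastocysts at -2.09 (adjusted p = 0.000148 by limma).

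Of 15 other acyl-CoA synthetases 4 were higher in blastocysts and 0 lower. *ACSL3*, a synthetase of ER and droplets, was 6.78-fold higher (adjusted p = 0.000808), with log2 ratios of -0.13 and 0.49 in blastocysts, and -2.30 and -2.86 in morulae, opposite to *ACSL1*. *ACSS2*, which activates acetate, was at least 4.24-fold higher (adjusted p = 0.00164 by limma), its morula signal not being above the background. Its dimmer probe differed by 0 and was not called. *SLC27A2*, a fatty acid transporter and synthetase, was called higher too (adjusted p = 0.00332 by limma). It was not above the background in either morula sample. Its lower bound, 4.26-fold, exceeded the 3.9-fold of the main fit, so neither is taken as its fold. *ACSF2* differed by 0.84, under the 2-fold minimum.

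In triacylglycerol synthesis both directions occurred. Of 14 genes 4 were higher and 1 lower in blastocysts: the acyltransferases *AGPAT3*, *AGPAT1* and *AGPAT9* (now *GPAT3*) were 5.91-fold, 4.98-fold and 3.79-fold higher, and *AGPAT5* was 4.94-fold lower (adjusted p = 0.000124 by limma). *LPIN3*, a phosphatidate phosphatase, differed by 0.07. *DGAT2*, which completes triacylglycerol, was 2.30-fold higher in ICM than in TE (adjusted p = 0.0161), with log2 ratios of 0.68 and 0.82 in ICM and -0.48 and -0.43 in TE, a call that was lost without any 1 of these 4 samples.

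For fat use, *MGLL*, which splits monoacylglycerol, was 3.73-fold higher in blastocysts and the other 4 lipolysis genes did not pass, *ABHD6* among them at 0.75. Of 21 genes of fatty acid oxidation 6 were higher and 1 lower. The peroxisomal genes *SCP2* and *HSD17B4* were 8.53-fold and 3.47-fold higher in blastocysts (*SCP2* reading up to 64994 units, next to saturation) and *DECR1*, a mitochondrial reductase, 3.07-fold, while *ACAA2* differed by 0.09. The 1 gene that was lower was *SLC25A20*, the carnitine carrier of the inner mitochondrial membrane, with log2 ratios of 0.77 and 0.61 in ICM, -0.49 and -0.50 in TE, 0.15 and 0.09 in blastocysts, and 1.23 and 1.34 in morulae. It had the same order of groups as *PLIN2* and *FABP3*, was 2.24-fold lower in blastocysts than in morulae and was 2.27-fold higher in ICM than in TE (adjusted p = 0.00045 and 0.00796 by limma). The difference between ICM and TE was no longer called without any 1 of their 4 samples.

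Of 20 genes of phosphatidylethanolamine and phosphatidylcholine synthesis 3 were higher in blastocysts and 0 lower, against 10.2% higher and 7.15% lower among all genes. *CHPT1*, a cholinephosphotransferase, was 3.21-fold higher, and the lysophospholipid acyltransferases *MBOAT1* and *MBOAT2* 2.76-fold and 2.35-fold, while *GDE1* did not pass and is given without a difference, since 1 of its blastocyst readings, 65303 units, was past the saturation limit of 65000. Among 20 MFSD carriers and lysolipid or choline transporters 6 were higher and 0 lower, led by the choline transporter-like genes *SLC44A2* at 7.83-fold and *SLC44A3* at 3.27-fold and by *MFSD10* at 2.75-fold, and *MFSD5* differed by 0.51. Dimmer probes were not called, at -0.39 and 0.61 for *SLC44A2* and 0.2 for *SLC44A3*. *MFSD2B*, the closest relative of *MFSD2*, was named after its values were seen: its brightest probe gave -0.10 between blastocysts and morulae and 0.18 between ICM and TE, but a second probe of nearly equal intensity gave -1.96 and 1.42, both called (adjusted p = 8.96e-05 and 0.0049 by limma). The probes of *MFSD2B* thus disagreed, the dimmest giving 0.43 and 0.12.

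Of 13 lipid-sensing nuclear receptors and coactivators 0 were higher and 1 was lower in blastocysts. This was *PPARGC1B*, a coactivator of oxidative metabolism, with log2 ratios of 0.07 and -0.31 in blastocysts, and 2.15 and 1.71 in morulae, a 4.14-fold lower level (adjusted p = 0.000252 by limma). *PPARG*, the fat cell receptor, differed by 0.19, and *RXRB*, a partner of such receptors, by -0.37. Between ICM and TE none of the 13 was called (limma).

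**Figure D4:**
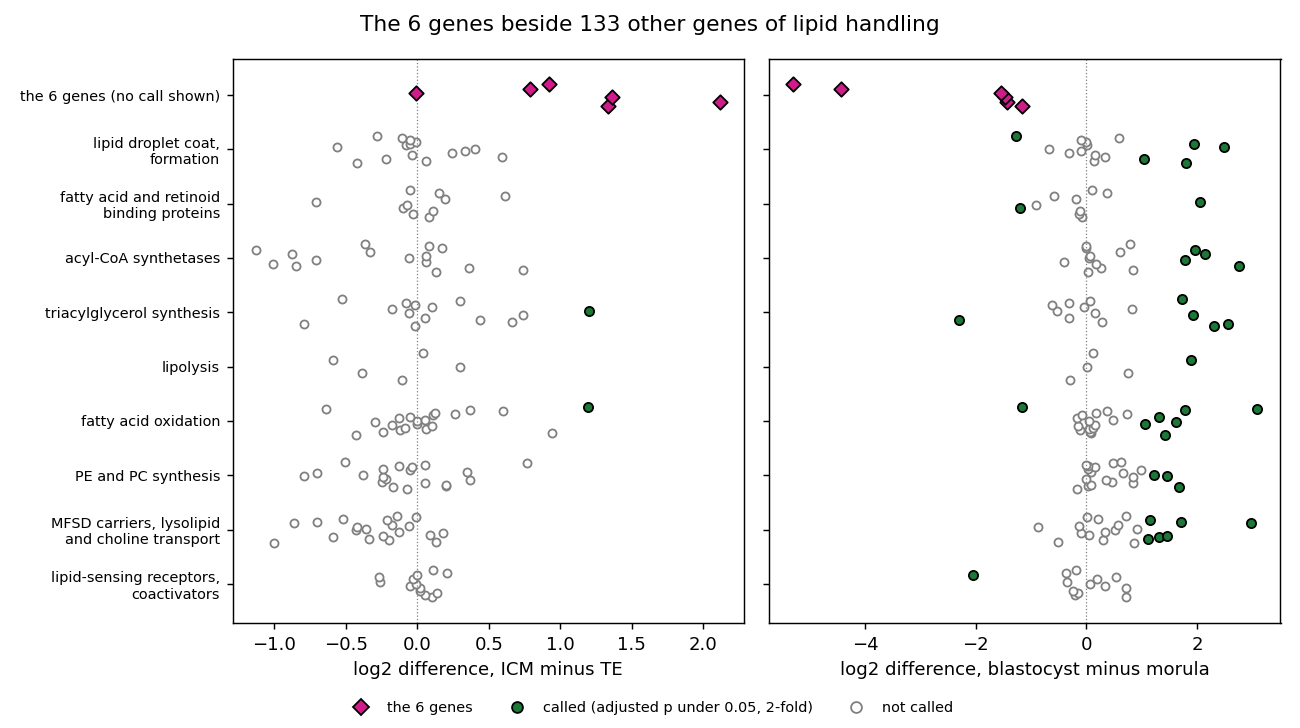
Log2 difference (x axes) of ICM minus TE (left) and blastocyst minus morula (right) for the brightest probe of each gene, with the 6 genes as diamonds on top and 133 other genes of lipid handling in 9 rows below. Filled circles were called (adjusted p under 0.05 and at least 2-fold); the 6 genes lie left of 0 on the right side, where 29 of the 34 called list genes lie right of it.

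The genes with the most similar profiles were sought among all 12552, by the root mean square difference of the 8 log2 ratios. Closest to *PLIN2* was *PRDM14*, a transcription factor of pluripotent cells, at 0.13, followed by *HDAC2* at 0.20. For *FABP3* these were *DCK* at 0.24 and *RRAD* at 0.26, and for *FABP7* *PDE6C* at 0.16 and *UNG* at 0.19. *ACSL1* was nearest to *PPT2* and *CATHL3*, both at 0.12.

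The phospholipid genes had no neighbour as close. *MFSD2* was nearest to *TGFBI* at 0.32 and *ARGFX* at 0.46, and *AGXT2L1* to *ARGFX* at 0.60 and *RGS2* at 0.61. *ARGFX*, a homeobox gene, had log2 ratios of -0.17 and 0.00 in ICM, -0.40 and -0.58 in TE, 0.38 and -0.18 in blastocysts, and 3.14 and 5.20 in morulae, replicate 1 again being the lower of the 2 morula samples.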

How the data were processed

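The deposited intensity values are the authors' mean spot signals of both channels from Imagene, neither normalized nor background-subtracted; the log2 values of the deposited series matrix are the authors' sample over pool ratios after loess and dye-bias correction. The matrix served as an alternative, with column medians of -0.00228 to 0.0117. Its direction was checked against the sample over pool ratios of the intensities, at r = 0.34 to 0.981 before loess and 0.727 to 0.993 after it. Whether the authors subtracted background is not given in the sources used here, and it was not done here. No column of the authors' own comparisons was present.

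R 4.3.3 with limma 3.58.1 was used for loess on the mean intensities of each array with control spots at weight 0, and a fit of 4 group means and a dye term to all 8 arrays, with moderated variances (3 residual and 3.17 prior degrees of freedom) and Benjamini-Hochberg adjustment. Python 3.11.15, pandas 2.3.3, numpy 2.4.6 and matplotlib 3.10.9 drew the figures. Dye equals replicate number in every group, so the dye term is the replicate block. Replicate differences correlated between groups at r = 0.201 to 0.486 over all 6 pairs, and ICM and TE of equal number came from nearly the same embryos. The p-values rest on the spread between these 2 samples per group that the replicate term leaves. This spread was pooled over all 4 groups, blastocysts and morulae included, and moderated over all gene probes.

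Of the gene probes 27952 carried 1 symbol, 0 several and 15701 none; 11579 symbols were current in RefSeq, 838 were synonyms and 135 were not found. A gene was represented by its brightest probe. Above background meant exceeding the local mean by 2 background SD; no probe of the 6 genes reached saturation at 65000. A fold against a group at background is a lower bound, the mean of the bright group over the higher of the dim signal and the lowest signal above background. The signals for this bound were scaled with Aquantile, unlike those of the main fit. The 6 genes and the lists were chosen with earlier results of these data known. Named were the 6 genes, up to 3 called genes per list, comparison and direction, the brightest gene per list that was not called, and 2 nearest profiles per gene. Alternatives were normexp with an offset of 50, median centring, Aquantile, the matrix, the upper 60% of probes by intensity, a fit lacking the replicate block, a fit to the 4 arrays of a comparison alone, averaging of each gene's probes, other fold minimums and each replicate left out. The model was tested on simulated data.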

Additional observations from a re-analysis of the deposited data

How the results depend on the processing

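With 2 samples per group, calls between ICM and TE were sensitive to single samples. *FABP3* kept its call under the 8 other normalizations, filters and fits and lost it without ICM replicate 2, with differences of 1.87 to 2.36 over the 8 replicates left out in turn. *FABP7* fell to 0.73 with normexp and 0.91 with its probes averaged, which ended the call, and ran from 1.10 to 1.62 with replicates left out. *PLIN2* passed at 1.33 over the upper 60% of probes, with only the ICM and TE arrays and with probes averaged, and also without any 1 blastocyst or morula replicate (1.09 to 1.57 over all left-out replicates). *ACSL1* changed sign around 0, to 0.0018 with the series matrix, and ran from -0.12 to 0.09 with replicates left out. *MFSD2* (0.46 to 1.12 with replicates left out) and *AGXT2L1* (0.39 to 1.46) were called in no setting.

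For blastocyst minus morula, every value of the 6 genes stayed below 0. Median centring gave -1.80 for *ACSL1* and -1.68 for *FABP3*, normexp gave -4.64 for *AGXT2L1* and -0.92 for *FABP7*, and averaging the probes gave -1.07 for *ACSL1*, -1.02 for *FABP7* and -2.31 for *MFSD2*, where the dimmest probes entered the mean. With replicates left out the ranges were -1.54 to -0.80 for *PLIN2*, -1.54 to -1.33 for *FABP3*, -1.69 to -1.25 for *FABP7*, -1.81 to -1.29 for *ACSL1*, -5.36 to -3.49 for *MFSD2* and -5.97 to -4.66 for *AGXT2L1*.

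Without the replicate block, no call of the 6 genes changed: the ICM minus TE differences were 2.12 for *FABP3* (adjusted p = 0.00272 by limma) and 1.36 for *FABP7* (0.0195), and 144 genes were called higher and 22 lower in ICM.

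Counts moved with the fold minimum and the background. Over all genes, blastocyst minus morula gave 773 higher with probes averaged, and 2044 higher and 1767 lower at a 1.5-fold minimum or 2652 and 2351 with none. ICM minus TE gave 27 higher and 0 lower with normexp, 98 and 16 with probes averaged, 78 lower with median centring, 313 and 196 at 1.5-fold and 329 and 226 with no minimum, and 17 to 183 higher and 0 to 33 lower with replicates left out. Among the 133 genes of the lists, 44 were higher and 8 lower in blastocysts at 1.5-fold, 50 and 12 with no minimum, and 3 lower over the upper 60% of probes. In ICM against TE 1 was higher with normexp or probes averaged, and 7 were higher and 3 lower at 1.5-fold or no minimum. In that comparison 1 was lower with median centring and 2 with only the 4 arrays compared, and 0 to 2 were higher and 0 to 1 lower with replicates left out. Where no cause is given above, the cause was not tested.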
